A study of Homo sapiens with 3 samples.

Results

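The genes described here are 10 cytokines and receptors of the interleukin-1 (IL1) and interleukin-6 (IL6) families: IL1A, IL1B, IL18, IL1RN, IL1R1, IL1RAP, IL6, LIF, IL11 and IL6ST. They were chosen by symbol, and every probe that the platform annotation gives to these symbols was used. This gave 12 probes of 24460, and 10 genes of 17621. IL1RN and IL1RAP had 2 probes each, and the other 8 genes had 1. Total RNA came from HSC-3, a cell line of a human tongue squamous cell carcinoma, and was measured on 1-colour Cy5 microarrays with 1 array per condition. Parental cells carried no shRNA. Cells named shScr had received a lentiviral GFP vector (pGFP-C-shLenti) with a scramble short hairpin RNA (shRNA) that has no effective target, and cells named shDKK3 a lentiviral GFP vector whose shRNA targets DKK3, which encodes a secreted protein of the dickkopf family. The virus was made in HEK293 cells, and all HSC-3 cells were grown in DMEM with serum. Both shRNA lines, but not the parental cells, were grown with puromycin, and whether they were clones or pools was not given in the sources used here. The study's title asks how knockdown of DKK3 bears on the malignant behaviour of these cells. With 1 array per condition there were no replicates, no test was possible, and each difference below is a difference between these arrays.

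IL1 alpha (IL1A) and IL1 beta (IL1B) are made as precursors in epithelial cells and bind the receptor IL1R1, which signals together with its accessory chain IL1RAP through kinases to NF-kB and AP-1. IL1RN is a natural antagonist that occupies IL1R1 without signalling, and IL18 is a related cytokine with its own receptor. IL6, LIF and IL11 each use a ligand-specific receptor together with the shared chain IL6ST (gp130), which activates JAK kinases and STAT3. In squamous epithelium IL1A is stored in keratinocytes and released on damage, and both families take part in inflammation around carcinomas.

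The promoters of the 3 genes with the differences of at least 2-fold are shown first, because IL1A and IL6ST were low on the same array while IL1B followed another pattern. The sequences are from RefSeq, build GRCh38.p14, each running from 250 bases before to 50 bases after an annotated start, written 5′ to 3′ on the gene's strand, with capitals marking matches to any of 4 searched motifs. These motifs were an NF-kB core (GGG, then 5 bases of any kind, then CC), AP-1 (TGANTCA), a STAT palindrome (TTCNNNGAA) and the TATA box (TATAAA), sought on both strands. The IL1A window lies at chr2:112784444-112784743 on the minus strand, the IL1B window at chr2:112836730-112837029 on the minus strand and the IL6ST window at chr5:55994914-55995213 on the minus strand.
IL1A: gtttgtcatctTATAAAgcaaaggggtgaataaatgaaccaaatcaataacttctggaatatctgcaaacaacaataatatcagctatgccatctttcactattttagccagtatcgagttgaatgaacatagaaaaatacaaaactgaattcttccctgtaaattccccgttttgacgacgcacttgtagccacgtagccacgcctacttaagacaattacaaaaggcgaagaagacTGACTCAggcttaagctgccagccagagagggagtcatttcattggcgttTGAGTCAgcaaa
IL1B: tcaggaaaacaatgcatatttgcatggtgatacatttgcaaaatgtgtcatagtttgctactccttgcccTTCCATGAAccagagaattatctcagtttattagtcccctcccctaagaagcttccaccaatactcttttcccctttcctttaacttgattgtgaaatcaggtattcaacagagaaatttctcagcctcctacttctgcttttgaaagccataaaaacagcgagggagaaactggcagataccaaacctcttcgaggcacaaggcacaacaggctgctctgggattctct
IL6ST: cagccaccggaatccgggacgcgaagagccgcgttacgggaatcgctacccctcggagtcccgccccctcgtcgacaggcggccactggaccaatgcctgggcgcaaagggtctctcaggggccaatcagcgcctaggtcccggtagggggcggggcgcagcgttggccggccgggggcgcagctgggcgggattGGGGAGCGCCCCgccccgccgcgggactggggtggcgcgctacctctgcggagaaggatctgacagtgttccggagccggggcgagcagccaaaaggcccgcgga
The IL1A window held AP-1 matches 12 bases before the start and 39 bases into the transcript, and a TATAAA 239 bases before the start. A second annotated IL1A start, whose window overlaps this one, held the same AP-1 matches. The IL1B window held a STAT match 180 bases before the start and no match to the other motifs. The IL6ST window, with 72.7% G and C, held overlapping NF-kB core matches from 55 bases before the start. The GC contents of the IL1A and IL1B windows were 39.7% and 42.3%. Among 35116 RefSeq promoters of this length, 58.7% held the NF-kB core, 7.71% AP-1, 7.66% the STAT palindrome and 11.5% the TATA box. Windows were at hand for 8 of the 10 genes, 14 windows in all, as some genes have several annotated starts. Of these 8 genes, 5 had an NF-kB core match in at least 1 window, 3 AP-1, 2 STAT and 3 a TATA box. The shares of all promoters are per single window, so these counts per gene cannot be set against them. A match describes the letters in the window and shows no binding.

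Of the 24460 gene probes, between 78.5% and 81.3% lay above the blank spots on each array, the limit being the mean plus 2 SD of 2680 blanks. DKK3, the target of the shRNA, had an authors' normalised intensity of 309 (parental), 226 (shScr) and 170.2 (shDKK3), a scale on which the median of each array is 25. After normalisation its log2 difference was -0.39 to shScr and -0.71 to parental, against a spread, defined below, of 0.39. Neither reached 2-fold, and with the scanner files' background column subtracted it was 0.17 and 0.23, so the direction turned. All 7 of the epithelial marker genes measured were above the blanks on each array, and 3 of them were at least 2-fold different on the shDKK3 array from 1 or both controls. To shScr this was 28.6% of the 7, against 7.44% of all genes, and to parental 42.9%, against 3.90%. EPCAM, an adhesion molecule, was at -1.72 to shScr and -1.66 to parental, the basal keratin KRT14 at 1.07 and 1.85, and its partner KRT5 at 0.68 and 1.45. Their part in the differences below was not tested. The leukocyte markers PTPRC, CD163 and ITGAM were not above the blanks on any array, and neither were the fibroblast markers COL1A2 and LUM. Of the 10 leukocyte markers, 7 were above the blanks on the parental array and 6 on each of the others, and their summed intensity was 216 (parental), 151 (shScr) and 309.9 (shDKK3). Most of each sum came from CD68, named after its values were seen, at 142.7 (parental), 107.1 (shScr) and 236.5 (shDKK3). Of 8 fibroblast and endothelial markers, 4, 4 and 6 were above the blanks in that order, with sums of 139.9, 121 and 159.5, and the epithelial sums were 22332, 22949 and 49556. Intensities below are the authors' normalised values, and differences are on the log2 scale after background correction with an offset of 50 and quantile normalisation, which shrinks the folds of dim probes. The spread quoted for a gene is the robust SD of the shScr to parental difference over the 500 genes nearest in expression. It comes from the control arrays and is not a replicate error.

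**Figure D1:**
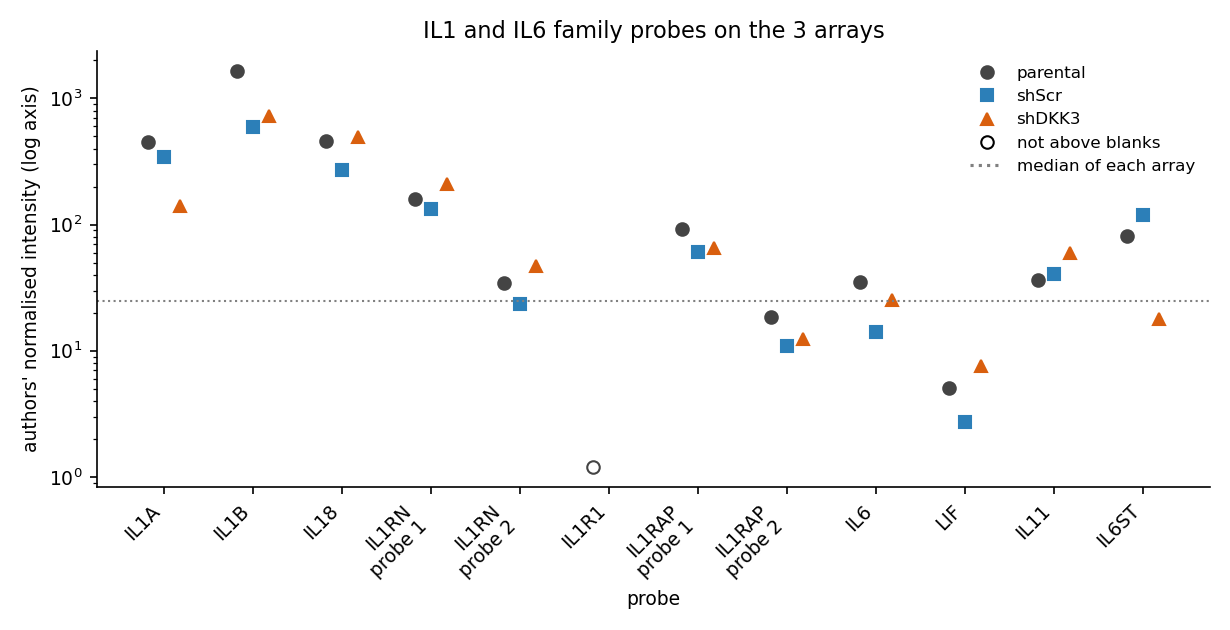
The authors' normalised intensity on a log axis is plotted for each of the 12 probes on the parental (circle), shScr (square) and shDKK3 (triangle) arrays, with the array median of 25 as a dotted line and an open symbol for a value not above the blanks. IL1A and IL6ST have their lowest point on the shDKK3 array, IL1B has its highest on the parental array, and IL1R1 has a deposited value on the parental array alone.

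Among the IL1 family ligands, IL1A was lowest on the array of the shDKK3 cells. Its intensity was 452 (parental), 344 (shScr) and 141 (shDKK3). The controls lay close together and the shDKK3 array stood below both. The log2 difference of shDKK3 was -1.18 to shScr (2.27-fold lower) and -1.44 to parental (2.72-fold lower), against a spread of 0.45. These differences lay at percentile 2.79 and percentile 0.45 of all compared genes. The shScr array was 0.26 below parental, within the spread. In bulk RNA a smaller share of cells that make a transcript and less transcript per cell cannot be told apart. Where the column headed as background in the scanner files was subtracted, IL1A missed 2-fold, at -0.49 to shScr and -0.76 to parental.

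IL1B had another pattern, high on the parental array and lower on both shRNA arrays. Its intensity was 1663 (parental), 593 (shScr) and 730.3 (shDKK3). The difference to parental was -1.32 for shScr (2.49-fold lower) and -1.30 for shDKK3 (2.46-fold lower), both larger than the spread of 0.48. They lay at percentile 0.38 and percentile 0.83 of all compared genes. Both differences use the same parental array. Between the shRNA arrays IL1B differed by 0.02, far less than the spread. Vector, virus and puromycin set both lines apart from the parental cells, and with 1 array each these and the array itself cannot be told apart. IL1B kept a difference of at least 2-fold to parental, on both shRNA arrays, under all 12 alternative settings in which its value was recomputed. Its 1 probe was above the blanks on all arrays, so those that changed the filter or averaged probes could not alter its value.

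IL18, which needs cleavage by caspase-1 to become active, was lowest on the shScr array. Its intensity was 456 (parental), 269.9 (shScr) and 496 (shDKK3). The parental and shDKK3 arrays were nearly level, with a difference of -0.01. The shScr array was 0.62 below parental and 0.61 below shDKK3, beyond the spread of 0.44 and short of 2-fold. With the scanner files' background column subtracted, shScr was level with parental (0.015) and shDKK3 lay 0.53 above parental. With scaling to the median, shDKK3 was 0.27 above shScr and shScr at -0.43 to parental, both within the spread. In the reported setting the 3 ligands of the IL1 family had different patterns, IL1A low on shDKK3, IL1B on both shRNA arrays and IL18 on shScr.

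The antagonist IL1RN was somewhat higher on the shDKK3 array. Its brighter probe read 159 (parental), 134 (shScr) and 210.2 (shDKK3). The shDKK3 array was 0.49 above shScr and 0.38 above parental, both slightly beyond the spread of 0.35 and below 2-fold. The dimmer probe read 34.4, 23.4 and 47.0 in the same order and gave 0.45 and 0.29, so both probes put the shDKK3 array highest. With scaling to the median the brighter probe gave 0.08 and 0.11, and with the scanner files' background column subtracted it gave 0.18 to shScr, all within the spread. On the array where IL1A was 1.18 below shScr, its antagonist was thus 0.49 above it in the reported setting.

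Of the IL1 receptor chains, IL1R1, the signalling receptor that binds IL1A and IL1B, was not above the blanks on any array. Its spot medians were 51.7 (parental), 56.1 (shScr) and 46.8 (shDKK3), against limits of 54.3, 59.1 and 49.2. Any difference for this gene was not detectable with this 1 probe. The accessory chain IL1RAP was measured on all arrays. Its brighter probe read 91.5 (parental), 61.0 (shScr) and 65.5 (shDKK3). The shScr array was 0.31 below parental and the shDKK3 array 0.26 below it, about the size of the spread of 0.30 and within it respectively. With the scanner files' background column subtracted these were 0.015 and -0.06. The shRNA arrays differed by 0.05. The dimmer IL1RAP probe, at 18.6, 11 and 12.5, gave the same order of arrays in the deposited values and smaller normalised differences (-0.15 and -0.16 to parental).

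The IL6 family ligands had low signal. IL6, the cytokine that gives the family its name, read 35 (parental), 14.0 (shScr) and 25.2 (shDKK3). It was 0.42 lower on shScr than on parental, beyond a spread of 0.16, and the shDKK3 array lay between them, 0.24 above shScr and 0.18 below parental. No offset is added in the authors' deposited values, and there IL6 was 2.50-fold lower on shScr than on parental. With the scanner files' background column subtracted the difference was -0.07, within the spread. LIF, leukaemia inhibitory factor, was barely above the blanks. Its spot medians were 57.3 (parental), 60.5 (shScr) and 54.7 (shDKK3), against the limits given above for IL1R1. Its normalised differences were 0.13 for shDKK3 against shScr and 0.08 against parental, and its deposited values of 5.10, 2.70 and 7.60 put shDKK3 2.81-fold above shScr. Such a fold rests on a few intensity units over the blanks. IL11, a cytokine that acts on stromal, bone and epithelial cells, read 36.1 (parental), 40.4 (shScr) and 59.3 (shDKK3). The shDKK3 array was 0.46 above parental and 0.31 above shScr, beyond the spread of 0.21 and below 2-fold, and the controls differed by 0.16, within it. With scaling to the median shDKK3 was 0.06 above shScr, with cyclic loess 0.14 and with the gene length trend removed 0.19, and with the scanner files' background column subtracted it was 0.17 above parental, all within the spread. The 3 ligands thus had their highest deposited values on different arrays, IL6 on parental and LIF and IL11 on shDKK3.

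IL6ST, the signalling chain shared by all 3 of these ligands, had the largest difference among the 10 genes between the shDKK3 and shScr arrays in the reported setting. Its intensity was 81.2 (parental), 119.6 (shScr) and 17.8 (shDKK3). The spot median on the shDKK3 array was 65.3, against a limit of 49.2, so the folds below rest on a dim value there. The shDKK3 array stood below both controls, and the shScr array was the highest. The difference of shDKK3 was -1.56 to shScr (2.94-fold lower) and -1.07 to parental (2.09-fold lower), against a spread of 0.24. In the authors' deposited values, to which no offset is added, the folds were 6.72 and 4.56. The shScr array was 0.49 above parental, also beyond the spread, so the difference to shScr includes a part that lies between the controls. IL6ST missed 2-fold to parental with scaling to the 75th percentile (-0.89), a setting in which the median of all genes was 0.26. With the scanner files' background column subtracted it missed 2-fold to both controls, at -0.69 and -0.33.

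**Figure D2:**
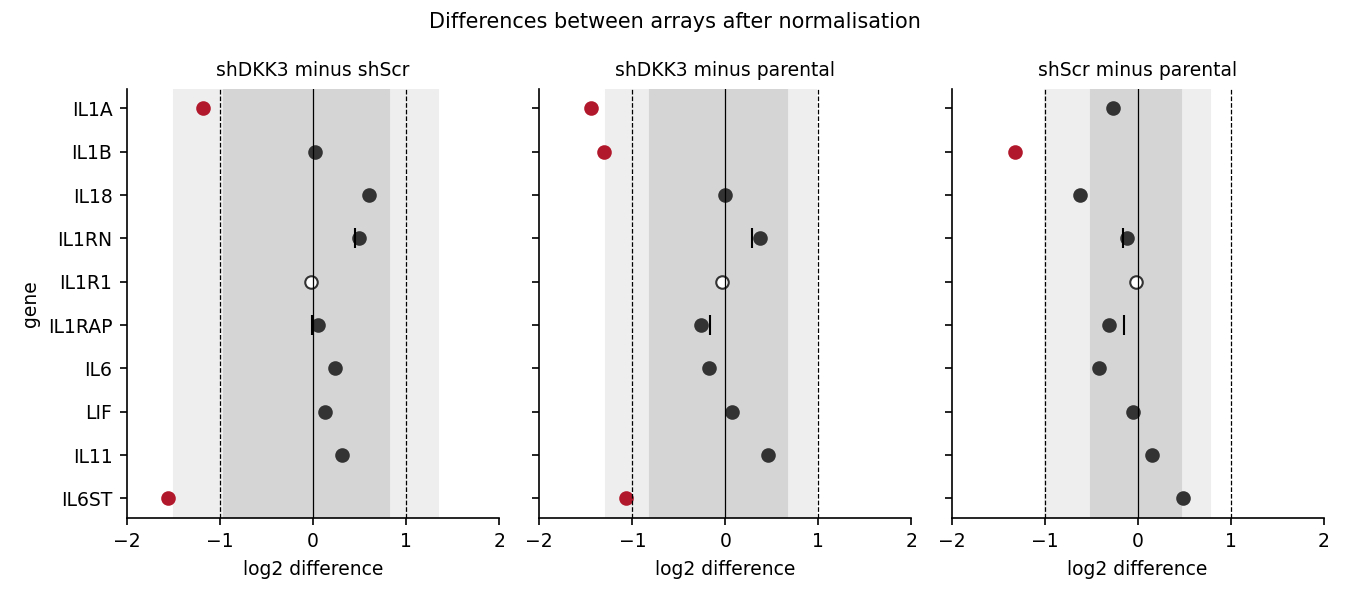
The log2 difference of each gene is plotted for shDKK3 minus shScr, shDKK3 minus parental and shScr minus parental, with the central 98% and 90% of all compared genes as light and dark bands, dashed lines at 2-fold, a tick for the second probe and an open circle for IL1R1, which was not above the blanks. IL1A and IL6ST pass 2-fold in both shDKK3 panels, IL1B in both panels against parental, and the other genes lie inside 2-fold.

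Counted together, 9 of the 10 genes could be compared, IL1R1 being the exception. Between shDKK3 and shScr, 2 of the 9 (22.2%) were at least 2-fold lower, IL1A and IL6ST, and 0 were higher. Of all 15148 genes compared, 7.44% passed 2-fold, 4.48% lower and 2.96% higher. The median of the 9 genes was 0.13 and that of all genes 0.03, and 7 of the 9 differences were above 0, against 55.9% of all genes. Between shDKK3 and parental, 3 of the 9 (33.3%) were at least 2-fold lower, IL1A, IL1B and IL6ST, and 0 higher. The background there was 3.90% of 14962 genes, with 3.04% lower and 0.862% higher, and the medians were -0.18 for the group and 0.03 for all genes. There 3 of the 9 differences were above 0, against 57.8% of all genes. Between shScr and parental, 1 of the 9 (11.1%), IL1B, was at least 2-fold lower and 0 were higher, against 1.39% of 14850 genes (0.983% lower and 0.404% higher). The median of the group was -0.26 and that of all genes 0.0036, and 2 of the 9 differences were above 0, against 51.2% of all genes. At least 2-fold lower than both controls on the shDKK3 array were 2 of the 9, IL1A and IL6ST, against 2.05% of all genes. At least 2-fold higher than both were 0 of the 9, against 0.564%. At least 2-fold lower than parental on both shRNA arrays was 1 of the 9, IL1B, against 0.219%. The comparisons share arrays, so these counts are not independent, and the genes had been chosen with earlier results of these data known.

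The genes most like each of the 3 were sought among 14053 others above the blanks on all arrays, by the Euclidean distance between their pairs of differences (shDKK3 minus shScr, shScr minus parental). Nearest to IL1A were CXorf26, now named PBDC1 (distance 0.011), SDCBP (0.041) and TWF1 (0.053), and 25 genes lay within 0.2. Nearest to IL1B were STEAP1 (0.057), CCND2 (0.109) and TNFAIP3 (0.162), and 6 genes lay within 0.2. Nearest to IL6ST were C5orf43, now named SMIM15 (0.033), C11orf58 (0.039) and DYNLT3 (0.039), and 79 genes lay within 0.2. With 3 arrays such a pattern holds 2 numbers, so likeness here is weak.

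Other ligands and receptors of both families stayed within 2-fold in the reported setting. Of 14 further IL1 family genes, 13 were matched to probes and 11 could be compared. In each comparison 0 of these were at least 2-fold different. The shares of all genes were 7.44% (shDKK3 against shScr), 3.90% (shDKK3 against parental) and 1.39% (shScr against parental). IL33 and IL18RAP were not above the blanks on any array. The differences of the 11 between shDKK3 and shScr ran from -0.16 for IL1RL1, the IL33 receptor, to 0.64 for SIGIRR, a receptor that dampens IL1 signalling. Of 15 further IL6 family genes, 12 were matched and 11 compared, again with 0 at least 2-fold different. Under some of 14 alternatives, thresholds included, up to 5 of the 11 IL6 family genes were past the threshold and higher on shDKK3 than on shScr. Up to 3 were lower on shScr than on parental. Their differences ran from -0.15 for OSMR, the oncostatin M receptor chain, to 0.89 for its ligand OSM, above the 95th percentile of all genes (0.82). IL6R, the ligand-specific receptor of IL6, was at 0.74, and its deposited value was 2.05-fold higher on shDKK3 than on shScr. The median log2 difference of all genes in the deposited table was 0.32 there. Against parental IL6R was at 0.19 on shDKK3 and -0.55 on shScr, so much of the difference lay between the controls. These genes were named after their values were seen.

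Signalling and processing genes of the IL1 pathway differed in both directions. Of 21 compared, 3 were at least 2-fold higher and 4 lower on shDKK3 than on shScr, against 2.96% and 4.48% of all genes, and their median was 0.03, as was that of all genes. PYCARD, the inflammasome adaptor, was 1.40 higher, and CAPN1, the catalytic subunit of calpain-1, 1.17 higher. CAPN2, the catalytic subunit of calpain-2, was at -1.13, and the inflammatory caspase CASP4 also at -1.13. Against parental PYCARD was at 0.73 on shDKK3 and -0.68 on shScr, CAPN1 at 0.68 and -0.49, and CASP4 at -0.44 and 0.68. For these 3 genes the difference between the shRNA arrays thus includes a part that lies between the controls. Calpains are known to cut the IL1A precursor, and their 2 catalytic subunits thus lay on opposite sides. Against parental, 0 were higher and 2 lower, against 0.862% and 3.04% of all genes. The lower ones were CAPN2 (-1.03) and MAP3K7, the kinase TAK1 downstream of the IL1 receptor (-1.03). Between the controls 0 passed 2-fold, against 1.39% of all genes. Over 14 alternatives the higher genes on shDKK3 against shScr numbered 0 to 7 and the lower ones 0 to 4. MAP3K7 and CASP4 changed sign with the scanner files' background column subtracted.

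Many genes known as IL1 and NF-kB targets had lower signal on both shRNA arrays than on the parental array, as IL1B had. Of 18 compared, 7 were at least 2-fold lower on shScr than on parental, against 0.983% of all genes, 0 were higher, and the median was -0.61. On shDKK3 against parental, 6 were lower, against 3.04% of all genes, 0 higher and the median was -0.59. The neutrophil chemokine CXCL2 was at -1.79 on shScr and -1.76 on shDKK3, and CSF2, a growth factor of myeloid cells, at -1.63 and -1.29. IL8, now named CXCL8, was at -1.37 and -2.40. The 4 genes at least 2-fold lower on both shRNA arrays, against 0.219% of all genes, were CXCL2, IL8, TNFAIP3 and CSF2. SOD2, mitochondrial superoxide dismutase, and NFKBIA, the NF-kB inhibitor, were at least 2-fold lower on shScr and not on shDKK3, at -1.77 and -1.54 against -0.44 and -0.59 on shDKK3. The cytokine TNF, named after its values were seen, was the other such gene, at -1.11 on shScr and -0.76 on shDKK3. CXCL1 was at -1.35 on shDKK3 and -0.83 on shScr, the former turning to 0.088 with the scanner files' background column subtracted. NFKBIA and TNFAIP3 are themselves feedback inhibitors of NF-kB. Over 14 alternatives, thresholds included, the number of lower targets ran from 1 to 11 for each shRNA array against parental.

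Between the shRNA arrays the same targets were mixed. Of the 18, 3 were at least 2-fold lower on shDKK3 than on shScr, against 4.48% of all genes, 1 was higher, against 2.96%, and the median was 0.10. The lower ones were PTGS2, which encodes cyclooxygenase-2 (-1.12), BIRC3, an inhibitor of apoptosis (-1.10), and IL8 (-1.03), and the higher one was SOD2 (1.34). BIRC3 was also 1.48 below parental on the shDKK3 array, and PTGS2 was at -0.78 there. Both were dim on the shDKK3 array, with deposited values of 10.2 for BIRC3 and 17.5 for PTGS2. Over 12 alternatives the difference to shScr ranged from -2.73 to -0.08 for BIRC3 and from -2.27 to -0.38 for PTGS2. With the scanner files' background column subtracted, 1 target was at least 2-fold lower than parental on each shRNA array. In that setting 3.17% (shDKK3) and 2.98% (shScr) of all genes differed at least 2-fold from parental in either direction. SOD2 changed sign there.

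STAT3 targets, downstream of IL6ST, were spread to both sides of 0 on the shDKK3 array. Of 15 compared, 3 were at least 2-fold higher than on shScr, against 2.96% of all genes, and 0 lower, against 4.48%, with a median of 0.16 where that of all genes was 0.03. The lowest was MCL1, a survival factor named after its values were seen, at -0.61 to shScr and -0.75 to parental. The higher ones were TIMP1, an inhibitor of matrix metalloproteinases (1.39), BCL3, a regulator of NF-kB subunits (1.17), and CEBPD, a transcription factor of the acute-phase response (1.01). Against parental they were at 0.61, 0.77 and 0.73 on shDKK3. The second BCL3 probe gave 0.52, and over 14 alternatives the higher targets numbered 0 to 5. Against parental, 1 was at least 2-fold higher, the small heat shock protein HSPB1 (1.03), against 0.862% of all genes. There 0 were at least 2-fold lower, against 3.04%, and the median was 0.09. SOCS3, a feedback inhibitor that STAT3 induces, read 10.3 (parental), 8.80 (shScr) and 16.2 (shDKK3), and is named here after its values were seen. These deposited values lay below the array median. After normalisation SOCS3 on shDKK3 was 0.16 above shScr and 0.17 above parental, well short of 2-fold. Of 15 JAK-STAT signalling genes, 0 passed 2-fold between the shRNA arrays, against 7.44% of all genes. On shDKK3 against parental 1 did (6.67%, against 3.90% of all genes), the phosphatase PTPN11 (-1.41). Its difference to shScr was -0.79.

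**Figure D3:**
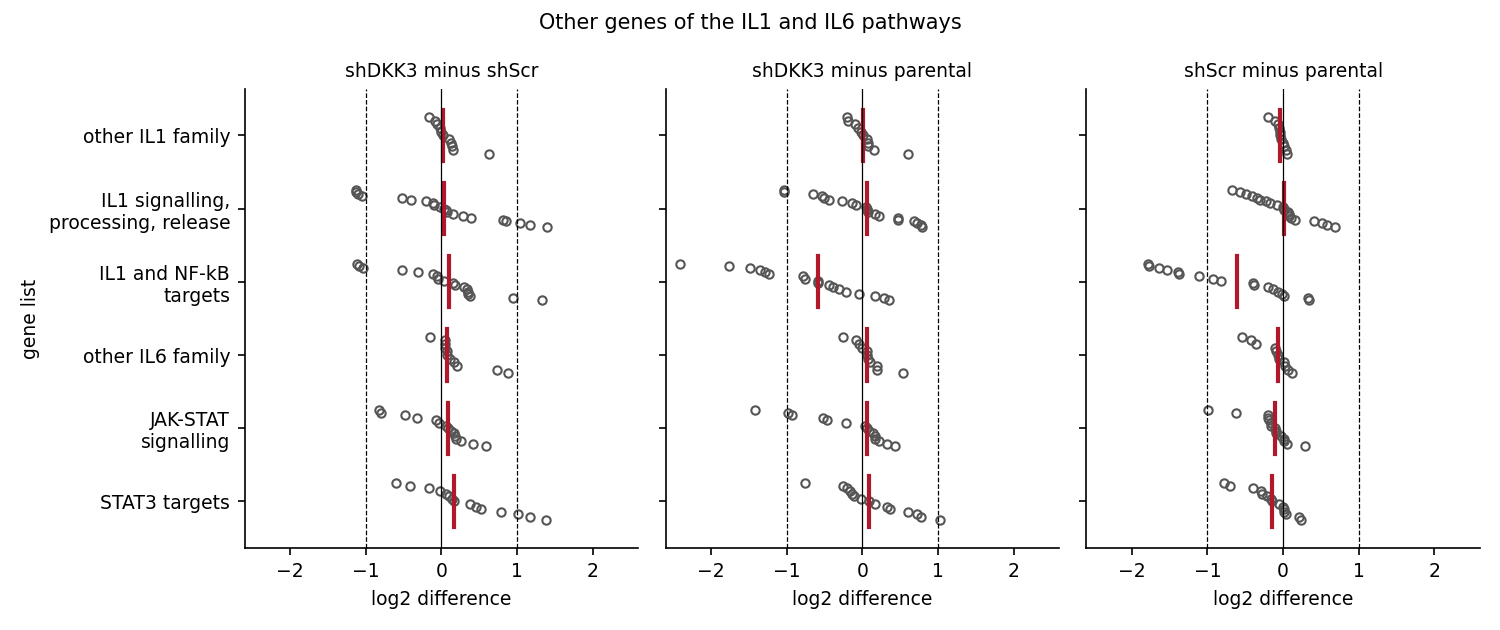
Each open circle is the log2 difference of 1 compared gene of 6 lists from the IL1 and IL6 pathways, for shDKK3 minus shScr, shDKK3 minus parental and shScr minus parental, with the list median as a vertical bar and dashed lines at 2-fold. The bar of the IL1 and NF-kB targets lies at -0.59 and -0.61 in the panels against parental, and the bars of the other lists lie near 0.

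Across processing settings the 3 genes that passed 2-fold kept their sign in the comparisons where they passed it. For shDKK3 minus shScr, IL1A ranged from -1.56 to -0.49 and IL6ST from -2.85 to -0.69 over 12 alternatives, and each passed 2-fold in 11 of them. For shDKK3 minus parental, IL1A ranged from -1.68 to -0.76, IL1B from -1.42 to -1.19 and IL6ST from -2.19 to -0.33, passing 2-fold in 11, 12 and 10. For shScr minus parental, IL1B ranged from -1.49 to -1.05 and passed in all 12. Each of the 3 genes had 1 probe, above the blanks on all arrays. The alternatives that changed the filter or averaged probes therefore returned the reported value and could not disagree.

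**Figure D4:**
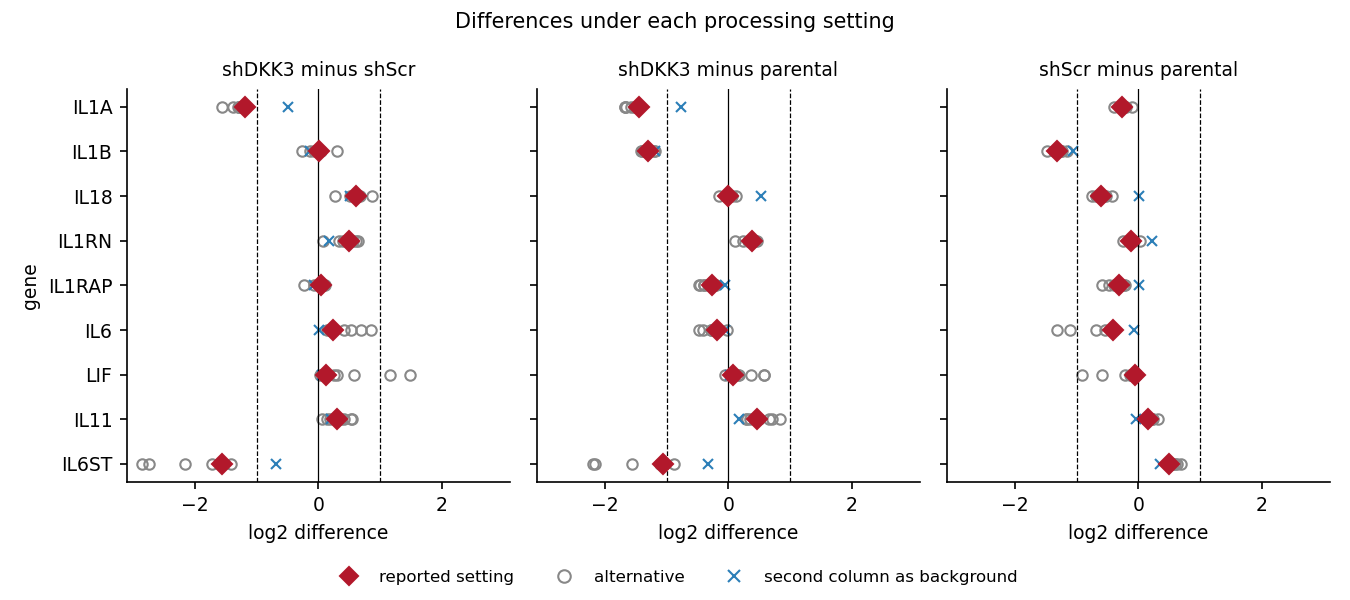
The log2 difference of each of 9 genes is plotted under the reported setting (diamond), the alternatives (open circles) and the scanner files' background column subtracted (cross), for the 3 comparisons, with dashed lines at 2-fold. The crosses of IL1A and IL6ST fall inside 2-fold in both shDKK3 panels, and all points of IL1B against parental lie beyond it.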

How the data were processed

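The scanner files hold intensity values, which per the file headers are spot medians read at 635 nm and joined by the authors from scans at 3 gains. They are not background subtracted. The deposited series table holds the authors' normalised intensity, linear and without centring per gene. The spot medians lie on a straight line of it, rising by 1.41 (parental), 1.83 (shScr) and 1.04 (shDKK3) units for each unit of the deposited value, and its normalisation was not given in the sources used here. RNA was amplified and coupled to Cy5, per the labels' protocols.

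Normexp background correction in limma 3.58.1 (R 4.3.3) used every spot and added an offset of 50, and the result was quantile normalised over gene probes on the log2 scale. The steps were tested on simulated data in which only brighter probes were changed. Probes as dim as those of IL6, LIF, IL11 and IL6ST were not covered. The 9 probes marked as not good were left out. A probe was detected above the mean plus 2 SD of the blanks, and a gene was compared where detected on the brighter array, through its probe with the highest mean. Symbols came from the platform annotation, 1 symbol for 20236 probes and none for 4224, and older ones were updated through RefSeq, build GRCh38.p14. Groups came from the shRNA labels. Counts use a log2 difference of at least 1, with no test.

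Named genes were all 10 members with every probe, DKK3, up to 4 genes of each of 6 pathway lists and comparison by size beyond 2-fold, and the 3 nearest genes to each member past 2-fold. The members and lists were chosen with earlier results of these data known. In 11 alternatives the analysis changed background, normalisation, source, filter or probe rule. Thresholds of 1.5-fold and 3-fold were also tried, and removal of the trend with gene length was added after seeing the data.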

Additional observations from a re-analysis of the deposited data

How the results depend on the processing

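Single values of 9 genes were recomputed 324 times under the alternatives. Of these, 274 moved by less than the spread between the control arrays and 50 by more, and no value that had passed 2-fold changed sign. All 9 genes were above the blanks on every array, so changing the filter could not move a value. Averaging probes could not either for genes with 1 probe, and these repeats are among the 274. The count of genes at least 2-fold different was 2 of 9 for shDKK3 against shScr, 3 for shDKK3 against parental and 1 for shScr against parental. At 3-fold these counts were 0, 0 and 0, against 1.12%, 0.334% and 0.209% of all genes. With the scanner files' background column subtracted they were 0, 1 and 1, against 5.2%, 3.17% and 2.98% of all genes. For shScr against parental the count was 2 at 1.5-fold (IL18 joining, as it did for shDKK3 against shScr), and also 2 in the authors' deposited table and with the blank mean subtracted (IL6 joining, at -1.32 and -1.11). For shDKK3 against shScr LIF joined in these settings, at 1.49 and 1.17. The share of all genes past 2-fold rose there too, from 7.44% to 25.7% and 23.8% for shDKK3 against shScr, from 3.90% to 15.4% and 15.6% for shDKK3 against parental, and from 1.39% to 7.44% and 6.55% for shScr against parental. With an offset of 16 these shares were 12.3%, 6.89% and 2.36%. At 1.5-fold the shares of all genes past the threshold were 21.0%, 16.2% and 6.81%.

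Lower genes made up 60.2% of those past 2-fold for shDKK3 against shScr. Their share was 42.2% in the deposited table, 71.0% after cyclic loess and 84.9% where arrays were scaled to equal medians. For shDKK3 against parental it was 77.9%, and 91.8% (equal medians), 65.9% (75th percentile) and 53.3% (background column) in those that moved it by over 10 points. For shScr against parental it was 70.9%, and 53.4% with equal medians, 85.4% in the deposited table, 59.1% with the blank mean subtracted and 48.7% with the background column. Scaling to the 75th percentile moved the median of all genes to 0.36 for shDKK3 against shScr, 0.26 for shDKK3 against parental and -0.10 for shScr against parental, and the authors' table to 0.32, 0.11 and -0.20. Blank subtraction moved the first 2 to 0.12 and 0.12. Relative to the median of all genes, over 6 scalings and sources, IL1A stayed between -1.61 and -1.21 for shDKK3 against shScr, IL6ST between -3.07 and -1.57, and IL1RN between 0.03 and 0.49. With the background column, members that had not passed 2-fold changed sign for shScr against parental, IL18 to 0.015, IL1RAP to 0.015, IL1RN to 0.22 and IL11 to -0.04, for shDKK3 against parental IL18 to 0.53, and for shDKK3 against shScr IL1B to -0.13 and IL1RAP to -0.07. Outside the 10, CASP4 went from 0.68 to -1.78 on shScr against parental, and these values past 2-fold changed sign: CASP4 to 0.21 and SOD2 to -0.050 against shScr, MAP3K7 to 0.0088 against shScr and 0.073 against parental, CXCL1 to 0.088 on shDKK3 against parental, and SOD2 to 0.62 on shScr against parental. That column follows the brightness of its own spot (r between 0.949 and 0.976 across gene probes). The cause of the other shifts was not tested. Without the filter on dim probes IL1R1 entered, at -0.02 to shScr and -0.04 to parental. No paired analysis was possible because each condition has 1 array. Signal over background limits LIF, IL6 and the shDKK3 value of IL6ST, and IL1R1 most.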
